A study of Mus musculus with 4 samples.

Results

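Ctgf, Cyr61, Ankrd1, Axl, Wwc2, Amotl2 and Lats2 are genes known as targets of YAP and its TEAD partners, as regulators of the Hippo pathway, or as both. They were taken by name, 7 of the 22367 protein-coding genes of the annotation on assembled chromosomes, and all 7 were found on mm9. For each gene the peaks of YAP ChIP-Seq were listed within 5, 50 and 500 kb of its transcription start site (TSS). The experiment used undifferentiated E14Tg2a cells, a feeder-independent mouse embryonic stem cell (ESC) line, with no genetic change or treatment named in the labels, and peak lists hold no expression values by which the cell type could be checked. Chromatin was precipitated with a rabbit polyclonal antibody against YAP in 2 replicates from separate experiments, and 2 input replicates, which had no antibody, were not analysed here. The authors called peaks in each YAP replicate on its own and with no control library, so each peak stands out against the surrounding signal of its own library only.

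YAP is a coactivator that does not bind DNA by itself. It reaches promoters and enhancers through TEAD transcription factors, whose core recognition sequence is CATTCC, or GGAATG when read on the opposite strand. The kinases of the Hippo pathway phosphorylate YAP and hold it in the cytoplasm, and several of the pathway's inhibitors are themselves transcribed in response to YAP, a form of negative feedback. Ctgf, Cyr61, Ankrd1 and Axl are commonly used as readouts of YAP activity, whereas Wwc2, Amotl2 and Lats2 act on the pathway.

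A YAP peak lay at the TSS of 2 of the 7 genes, Ctgf and Wwc2, both in replicate 1 and neither in replicate 2. The count was 2 of 7 within 5 kb, against 0.657% of all coding genes with a peak summit that near in either list. It was still 2 of 7 within 50 kb, against 2.66% of coding genes, and 2 of 7 within 500 kb, against 17.4%. The 7 genes were chosen with earlier results of these data known, so these counts are descriptions and were not tested. The remaining 5 genes had their nearest summit between 0.868 and 5.02 Mb away. In replicate 2 alone, none of the 7 genes had a peak within 500 kb, where 5.4% of coding genes did.

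The sequences under the summits of the Ctgf and Wwc2 peaks are shown because each holds 3 copies of the TEAD core. They are read 5′ to 3′ along the gene from mm9, at chr10:24315093-24315247 on the plus strand for Ctgf and at chr8:49075901-49076101 on the minus strand for Wwc2, and end before the TSS. Capitals mark CATTCC or GGAATG.
Ctgf: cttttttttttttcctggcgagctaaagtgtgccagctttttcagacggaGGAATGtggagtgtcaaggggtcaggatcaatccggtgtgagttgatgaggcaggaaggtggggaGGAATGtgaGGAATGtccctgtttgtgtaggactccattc
Wwc2: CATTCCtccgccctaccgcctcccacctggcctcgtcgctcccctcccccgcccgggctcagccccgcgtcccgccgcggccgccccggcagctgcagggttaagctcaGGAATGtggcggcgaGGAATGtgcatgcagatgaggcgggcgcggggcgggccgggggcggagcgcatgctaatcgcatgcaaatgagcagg

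Ctgf encodes a secreted matricellular protein of the CCN family and is among the most widely used YAP-TEAD target genes. The gene (ENSMUSG00000019997.4) is 3242 bp long, and its single coding TSS is at 24315248 on chromosome 10. The peak of replicate 1 was 1547 bp long, reaching 704 bp upstream and 842 bp downstream of the TSS. Of that length 45.5% was upstream of the gene, 24.0% noncoding parts of exons, 18.5% coding exon and the rest intron. Its summit lay 55 bp upstream of the TSS, within the lincRNA gene Gm15270 on the opposite strand, whose own TSS was 1721 bp from the summit. No other coding TSS lay within 100 kb of the summit.

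The Ctgf peak held 61 tags, or 2.69 per 1000000 unique tags of replicate 1 (95% Wilson interval 2.09 to 3.45, which covers counting error only). Its score, which is 10 times the negative log10 of the p-value given by MACS, was 69.64 and ranked 215 of 447, close to the list median of 68.05. Its fold enrichment, the ratio of the tags at the peak to the local background, was 4.74 and ranked 391 of 447. Ctgf thus stood in the middle of the list by score and low in it by fold enrichment, and 87.2% of the peaks of replicate 1 had a higher fold enrichment.

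Wwc2 belongs to the family of KIBRA, a scaffold protein that promotes the activity of the Lats kinases. The gene (ENSMUSG00000031563.7) spans 164461 bp of chromosome 8 on the minus strand, with its TSS at 49075897. The peak of replicate 1 was 1779 bp long, reaching 966 bp upstream and 812 bp downstream of the TSS, and 54.3% of it was upstream of the gene. Noncoding parts of exons made up 19.5%, coding exon 7.36% and intron 18.8%. The summit lay 104 bp upstream of the TSS, with no annotated gene over it and no other coding TSS within 100 kb.

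The Wwc2 peak held 75 tags, or 3.30 per 1000000 unique tags (95% Wilson interval 2.64 to 4.14). Its score of 62.18 ranked 258 of 447 and its fold enrichment of 6.09 ranked 334. The intervals of the Ctgf and Wwc2 tags overlapped. Per kb of peak, Ctgf had 39.4 tags and Wwc2 42.2, against a median of 38.6 over the peaks of replicate 1, so both were of average density.

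**Figure D1:**
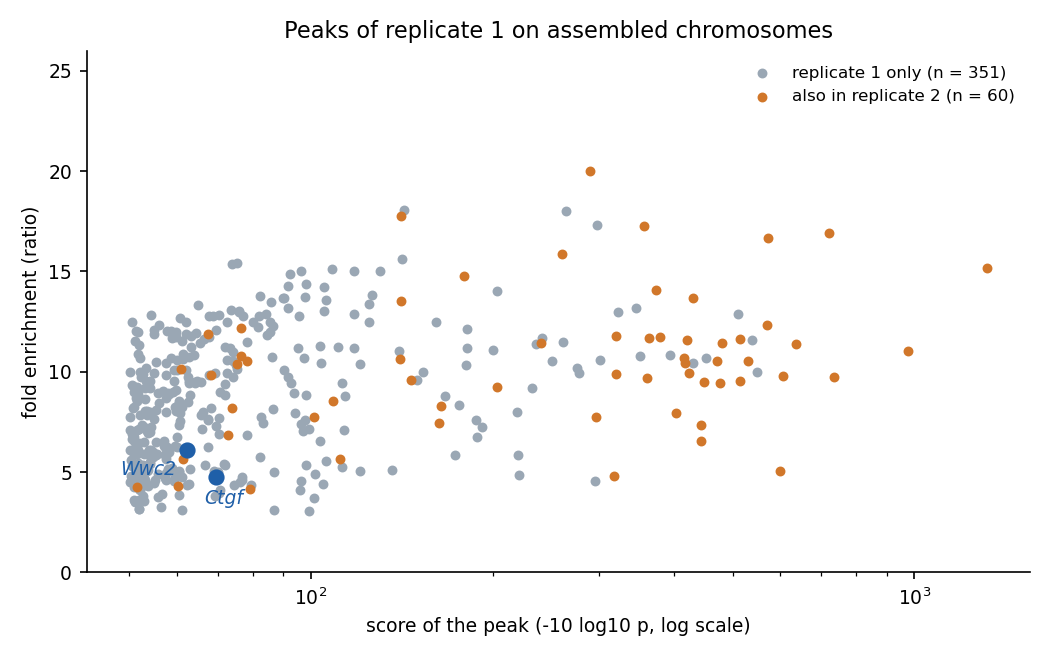
Score (x axis, negative log10 of p times 10, log scale) and fold enrichment (y axis, ratio to local background) of the 411 replicate 1 peaks that lie on assembled chromosomes, 1 point per peak, with peaks also found in replicate 2 in orange and Ctgf and Wwc2 in blue. Ctgf (69.64 and 4.74) and Wwc2 (62.18 and 6.09) lie near the middle of the list by score and low by fold enrichment. Over the whole list of 447 peaks, which includes some not drawn, 7 of the 95 with a score between 60 and 75 were found in replicate 2.

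The same values were set beside those of the peaks that covered a coding TSS. Replicate 1 had 58 such peaks, of which 27 covered a histone gene. Their median score was 70.57 and their median fold enrichment 5.745, so that Ctgf ranked 32 of 58 by score and 45 by fold enrichment, and Wwc2 ranked 35 and 28. Both genes were therefore near the middle of the promoter peaks by score. A summit as close as that of Ctgf, within 55 bp of a coding TSS, was found at 0.0805% of coding genes in replicate 1, and one within 104 bp at 0.125%.

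Neither peak was found in replicate 2, and this was also the case for most peaks of similar strength. Of all 447 peaks of replicate 1, 66 (14.8%, 95% Wilson interval 11.8 to 18.4) overlapped a peak of replicate 2. The share was 15.2% (14 of 92) for peaks with 50 to 100 tags, the range that holds both genes. For peaks with a score between 60 and 75 it was 7.37% (7 of 95), and for peaks with a score of 200 or more 61.2% (41 of 67). Among the 58 peaks over a coding TSS, 7 were found again (12.1%). Peaks with as many tags as Ctgf or Wwc2, and peaks over a coding TSS of any size, were thus seldom called in both replicates. Promoter peaks of that size were not counted apart.

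Replicate 2 was the shallower library, with 14965024 unique tags against 22696949 in replicate 1, a ratio of 0.659. Scaled by this ratio, the Ctgf peak would have held 40.2 tags and the Wwc2 peak 49.5, and 82 and 91 of the 154 peaks of replicate 2 had fewer. Over the 66 peaks of replicate 1 found in replicate 2, the median ratio of tags was lower, at 0.434 (range 0.0836 to 1). At that ratio Ctgf would have held 26.5 tags and Wwc2 32.5, more than 58 and 68 of the peaks of replicate 2. The ratio comes only from peaks called in both lists, so it may be too high for peaks called in replicate 1 alone. Peaks are called against the local background, so a tag count alone does not decide whether a peak is listed. The peak lists give no tag count for places where no peak was called, so the signal of replicate 2 at both promoters was not measured here. The part of the lower depth in their absence from the replicate 2 list was not tested.

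Cyr61, Ankrd1 and Axl had no peak nearby in either list. Cyr61 (ENSMUSG00000028195.3) encodes the closest relative of Ctgf among the commonly used targets, a secreted CCN protein. Its nearest peak in replicate 1 was 2.98 Mb upstream of the TSS on chromosome 3, with 26 tags, a score of 55.31 and rank 336 of 447, and 25 coding TSSs were closer to that peak than Cyr61 was. At least 1 peak of replicate 1 was as near for 58.6% of all coding genes. In replicate 2 the nearest peak was 26.2 Mb downstream.

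Ankrd1 (ENSMUSG00000024803.8) encodes an ankyrin repeat protein found in muscle sarcomeres and in nuclei. Its nearest peak in replicate 1 was 4.39 Mb upstream on chromosome 19, with 52 tags. Its score was 96.41 and its fold enrichment 15, the highest of both values among the nearest peaks of the 7 genes in replicate 1. For 72.4% of coding genes a peak was as near, and 109 coding TSSs lay closer to this peak. The nearest peak of replicate 2, 9.53 Mb upstream and inside Fbxw4, was also in the replicate 1 list.

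Axl (ENSMUSG00000002602.9) encodes a receptor tyrosine kinase. Its nearest peak in replicate 1 was 0.868 Mb downstream on chromosome 7, inside Arhgef1, with 21 tags and a score of 52.12, close to the lowest score in the list of 50.01. A peak lay as near for 24.7% of coding genes, and 68 coding TSSs were closer to it, in a region where 27 coding genes lay within 500 kb of Axl. Only 1 peak of replicate 2 was on chromosome 7, at 31.7 Mb from Axl.

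Amotl2 and Lats2, the feedback inhibitors, also lacked a nearby peak. Amotl2 (ENSMUSG00000032531.8) encodes an angiomotin-like protein that binds YAP and holds it outside the nucleus. Its nearest peak in replicate 1 was 1.33 Mb upstream on chromosome 9 (25 tags, score 51.85), a distance met by 34.0% of coding genes. Lats2 (ENSMUSG00000021959.9) encodes the kinase that phosphorylates YAP. Its nearest peak was 5.02 Mb downstream on chromosome 14 (21 tags, score 54.38), a distance met by 77.2% of coding genes, and 216 coding TSSs were closer to it. Amotl2 has 9 coding TSSs over 3615 bp and Lats2 has 6 over 58498 bp, and none of these was within 500 kb of a peak. In replicate 2, the nearest peaks were 10.1 Mb from Amotl2 and 6.25 Mb from Lats2.

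**Figure D2:**
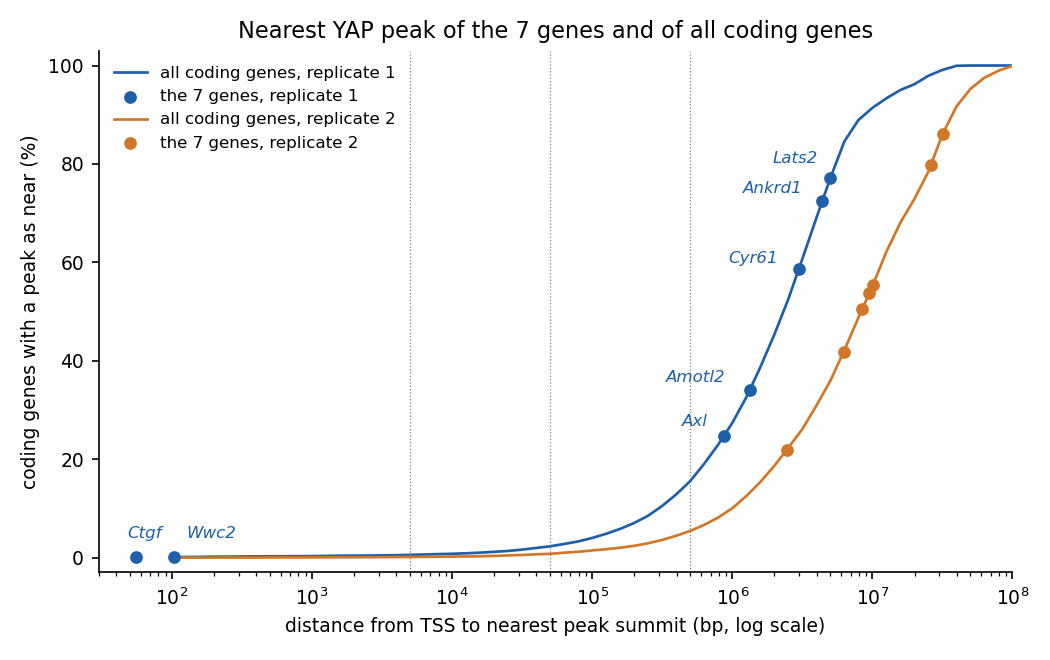
Distance from the TSS to the nearest peak summit (x axis, bp, log scale) against the share of coding genes with a summit as near (y axis, %), with lines for all 22367 coding genes and points for the 7 genes, in blue for replicate 1 and orange for replicate 2; dotted lines mark 5, 50 and 500 kb. Ctgf and Wwc2 stand at 55 and 104 bp in replicate 1, the other genes lie on the steep part of the curve beyond 500 kb, and all orange points lie at 2.45 Mb or more.

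In the order of distance in replicate 1, Ctgf and Wwc2 were followed by Axl, Amotl2, Cyr61, Ankrd1 and Lats2. The distances in this order come from a single list and carry no replicate error. To the nearest peak of either list, the median over the 7 genes was 1.33 Mb, against 2.0 Mb over all coding genes. In replicate 2 the order changed to Ctgf, Lats2, Wwc2, Ankrd1, Amotl2, Cyr61 and Axl, and each gene lay farther from a peak than in replicate 1. The replicate 2 list was also shorter, with 154 peaks against 447.

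The promoters of the genes without a peak were read for the TEAD core as well. Those of Cyr61 and Ankrd1 are shown, since both are standard YAP targets and carry matches upstream of the TSS. The bases before the TSS are at chr3:145312950-145313199 and chr19:36194335-36194584, both on the minus strand, again with CATTCC or GGAATG in capitals.
Cyr61: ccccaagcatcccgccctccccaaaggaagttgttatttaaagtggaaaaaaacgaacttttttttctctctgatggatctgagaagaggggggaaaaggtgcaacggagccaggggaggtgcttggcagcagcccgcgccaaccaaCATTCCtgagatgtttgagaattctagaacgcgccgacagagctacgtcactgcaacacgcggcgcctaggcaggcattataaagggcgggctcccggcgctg
Ankrd1: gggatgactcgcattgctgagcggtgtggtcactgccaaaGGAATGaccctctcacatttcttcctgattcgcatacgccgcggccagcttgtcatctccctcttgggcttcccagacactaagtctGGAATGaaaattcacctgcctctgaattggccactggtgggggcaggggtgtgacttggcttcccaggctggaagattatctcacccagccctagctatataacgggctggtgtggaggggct

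Up to 500 bp from the TSS in both directions, CATTCC on either strand occurred 4 times at Wwc2, 3 times at Ctgf, 2 times at Ankrd1 and 1 time each at Cyr61, Axl, Amotl2 and Lats2. Of all coding genes, 0.331% had as many matches as Wwc2, 1.78% as many as Ctgf, 9.59% as many as Ankrd1 and 38.6% at least 1. Within 1000 bp, Ctgf had 5, Wwc2 and Amotl2 had 4, Cyr61 had 3, Ankrd1 and Lats2 had 2 and Axl had 1, where 64.1% of coding genes had at least 1. All 7 genes thus had the core within 500 bp of the 5′ end of the gene, where Wwc2 and Ctgf had the most matches. Over all coding TSSs of a gene, the number within 500 bp ran from 0 to 3 at the 9 TSSs of Amotl2, as many as at Ctgf, from 0 to 1 at the 6 of Lats2, and was 1 at each of the 4 of Axl. A match is 6 letters long and does not show that TEAD was bound.

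**Figure D3:**
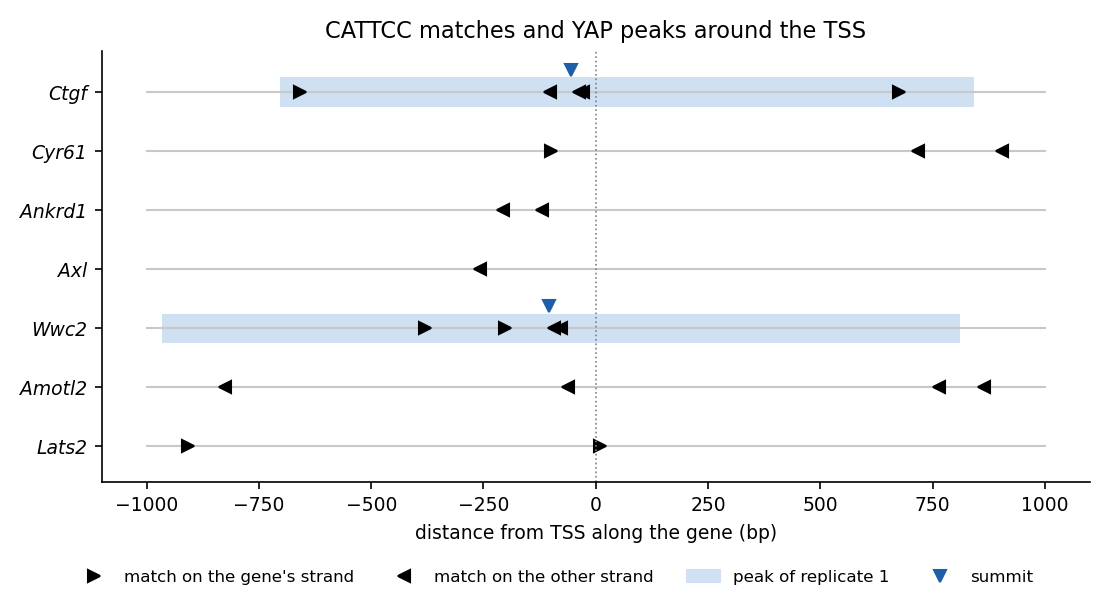
Matches to CATTCC (triangles, pointing right on the strand of the gene and left on the other strand) within 1000 bp of the TSS of each of the 7 genes, by distance along the gene in bp; light blue bars are peaks of replicate 1 and blue marks their summits. In all, 3 of the Ctgf matches and 3 of the Wwc2 matches lie within 100 bp of a summit, the closest pairs drawn on top of each other, and the other 5 genes have matches but no peak.

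The matches at Ctgf were close to the summit. Those 3 began 105, 40 and 31 bp upstream of the TSS, and their nearest bases lay 45, 15 and 24 bp from the summit. All 3 read GGAATG on the strand of the gene. Wwc2 had GGAATG 95 and 80 bp upstream of the TSS, at 9 and 24 bp from the summit, and CATTCC 204 bp upstream at 95 bp from the summit. The longer form ACATTCC was found 3 times near the Ctgf summit and 2 times near the Wwc2 summit. It was present at 3.65% of the summits of replicate 1 and 3.45% of those of peaks over a coding TSS.

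Few other peaks shared this content. On assembled chromosomes, replicate 1 had 411 peaks, of which 370 had no CATTCC within 100 bp of the summit, 34 had 1, 5 had 2, and only Ctgf and Wwc2 had 3. Of the 58 peaks over a coding TSS, 3 had any match (5.17%), those of Ctgf, Wwc2 and Plekhh3. The Plekhh3 peak had 1 match, 66 tags and a score of 61.42. Unlike those of Ctgf and Wwc2, it was also in the replicate 2 list, with 54 tags and a score of 71.59. Around coding TSSs in general, 7.98% of windows of the same length had at least 1 match and 0.447% at least 2. In replicate 2, 19 of 144 summit windows had a match (13.2%), and the only windows with more than 1 were simple repeats of the core near Arid1b and D17Wsu104e, with 30 and 14 overlapping copies.

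The base composition of the Ctgf and Wwc2 windows differed. GC content within 100 bp of the summit was 52.2% at Ctgf, with 8 CpGs, and 72.6% at Wwc2, with 23 CpGs. The median was 47.8% over the peaks of replicate 1 and 58.7% over those covering a coding TSS, where Wwc2 had the highest value. The sequence TGANTCA, recognised by AP-1, a factor often found with TEAD at enhancers, was absent from both peaks on either strand, and 2.68% of the summits of replicate 1 held it.

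At Ctgf, a pair of GGAATG copies stood 3 bases apart on the same strand. This spacing was looked for elsewhere only after it had been seen at Ctgf. GGAATGNNNGGAATG, on either strand, occurred in 4 of the 411 peaks of replicate 1 (0.973%), all within 100 bp of the summit, and in 0 of the 144 peaks of replicate 2. The nearest coding genes of the 4 peaks were Ctgf, Gadd45b, Bahcc1 and Pim1. The pairs are at chr10:24315208-24315222, chr10:80424107-80424121, chr11:120114221-120114235 and chr17:29588454-29588468, on the plus strand.
Ctgf: GGAATGtgaGGAATG
Gadd45b: GGAATGtggGGAATG
Bahcc1: GGAATGagaGGAATG
Pim1: GGAATGcaaGGAATG

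The centre of the pair was 22 bp from the summit at Ctgf, 62 bp near Gadd45b, 3 bp at Bahcc1 and 88 bp near Pim1. Of these, only the Ctgf peak covered a TSS. The others lay 31216 bp from Gadd45b (inside Gng7), 19970 bp into Bahcc1 and 39384 bp upstream of Pim1. Their scores were 53.98, 82.56 and 57.42, ranking 358, 164 and 317 of 447, with 42, 70 and 58 tags, and none was in the replicate 2 list. Gadd45b encodes a stress-response protein and Pim1 a serine/threonine kinase.

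The pair was rare in the genome, with 681 copies in 2558.51 Mb, or 0.266 per Mb, against 4 in 0.620 Mb of replicate 1 peaks, or 6.45 per Mb. It occurred in 1 of 822 windows placed 2000 bp to either side of the summits of replicate 1. For replicate 2 it occurred in 1 of 288 such windows, against 0 of the 144 peaks. Of spacings from 0 to 15 bases on the same strand, the peaks of replicate 1 had pairs at 3 bases (4 peaks) and at 9 bases (1 peak, Wwc2) and none at the other 14. Within 100 bp of a coding TSS the pair was found at 3 genes, Ctgf, Erc2 and Tead3. Tead3, which encodes a TEAD factor, had its nearest peak 1101 kb away. The spacing was chosen from the Ctgf peak, which is itself among the 4, so these counts describe the lists and were not tested.

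The authors kept reads that mapped to up to 100 places, and many peaks lay in repeated sequence, so the uniqueness of the Ctgf and Wwc2 sequences was measured. Each peak was cut into overlapping 25-mers, the tag size, and those found at a single place in the genome were counted. They made up 100% of the Ctgf peak and 99.5% of the Wwc2 peak. The median was 71.0% over the peaks of replicate 1 (interquartile range 38.7 to 84.9), and 97.1% of them were lower than Ctgf. Only 18 of the 411 peaks (4.38%) reached 99%, of which 2 were found in replicate 2, 8 covered a coding TSS and 9 had CATTCC at the summit. At a limit of 90% there were 75 peaks, of which 11 were found in replicate 2, 26 covered a coding TSS and 19 had CATTCC. Ctgf and Wwc2 are counted at both limits. The other 3 peaks with the pair had 97, 98.5 and 98.2% unique 25-mers. Matches were exact, whereas the authors' alignment allowed up to 2 mismatches, so these shares may overstate how uniquely reads were placed.

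**Figure D4:**
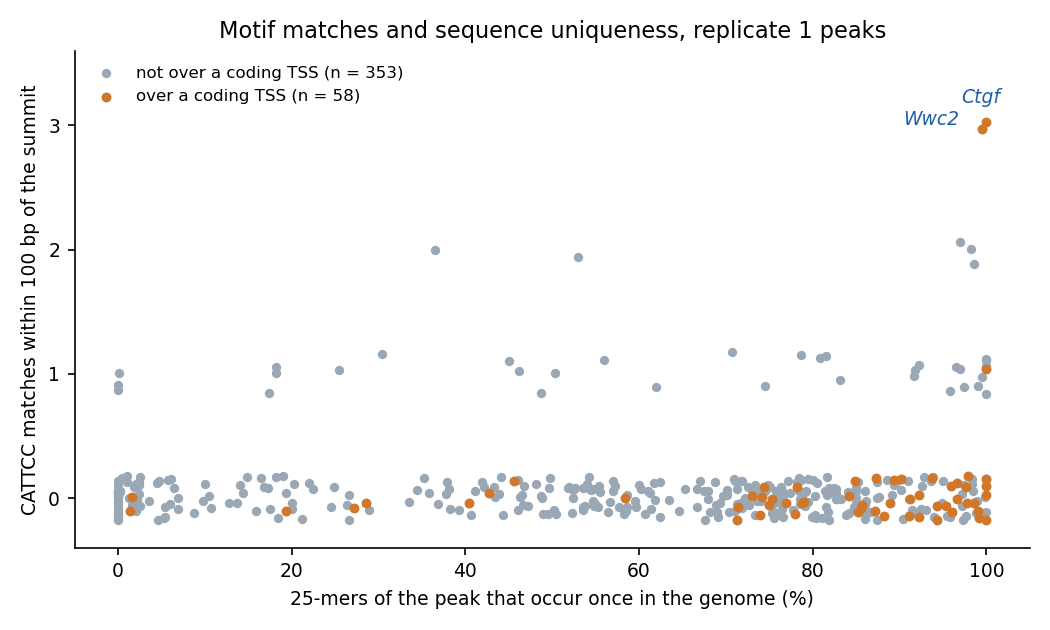
Share of single-copy 25-mers in each peak (x axis, %) and number of CATTCC matches within 100 bp of the summit (y axis, spread vertically at random around each whole number) for the 411 peaks of replicate 1, with the 58 peaks over a coding TSS in orange. Ctgf and Wwc2 are alone at 3 matches, at 100% and 99.5%. Most of the 411 peaks have 0 matches, but 9 of the 18 peaks with at least 99% unique 25-mers have a match. At a limit of 90%, 19 of 75 peaks have one, and both counts include Ctgf and Wwc2.

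The promoters of the genes without a peak were also mostly unique. From 1000 bp upstream to 1000 bp downstream of the TSS, unique 25-mers made up 99.9% at Cyr61, 99.3% at Ankrd1, 98.6% at Amotl2, 93.7% at Axl and 91.7% at Lats2. The median of 1000 sampled coding TSSs was 96.8% (interquartile range 89.3 to 99.3). All 5 values were above the lower quartile of this sample. The same windows of Ctgf and Wwc2 had 100% and 99.6%, higher than 89.3% and 80.8% of the sample. High uniqueness was thus common at coding TSSs.

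The wider pathway was read from lists of 62 genes, which include the 7. Of 11 core kinases and adaptors, none had a peak within 50 kb, and 1 had one within 500 kb (Lats1, at 394 kb). Of 16 upstream regulators, 2 had a peak within 50 kb (Wwc2 and Limd1) and 5 within 500 kb, the others being Amotl1, Rassf1 and Nf2. Of 9 genes for YAP, TAZ and their nuclear partners, including the TEAD and Vgll factors, none had a peak within 500 kb. Of 26 YAP target genes, 1 had a peak within 50 kb (Ctgf) and 5 within 500 kb, the others being Asap1, Dock5, Nuak2 and Tgfb2. Over all 62 genes, 17.7% had a peak within 500 kb, close to the 17.4% of all coding genes. Without the 7 genes, the remaining 55 had 0 within 5 kb, 1 within 50 kb (1.82%) and 9 within 500 kb (16.4%).

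Limd1, which encodes a LIM domain protein that restrains the Lats kinases, differed from Ctgf and Wwc2 in that its peak was in both lists. The peak lay 16.7 kb upstream of the Limd1 TSS, with the summit inside the neighbouring gene Lars2. It had 171 tags, a score of 357 and rank 39 in replicate 1, and 39 tags, a score of 78.4 and rank 68 in replicate 2. It held no CATTCC within 100 bp of the summit in either list. Its unique 25-mers were 81.4 and 75.6%, below those of Ctgf and Wwc2. Limd1 and the genes named here between 50 and 500 kb were picked after their distances were seen.

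**Figure D5:**
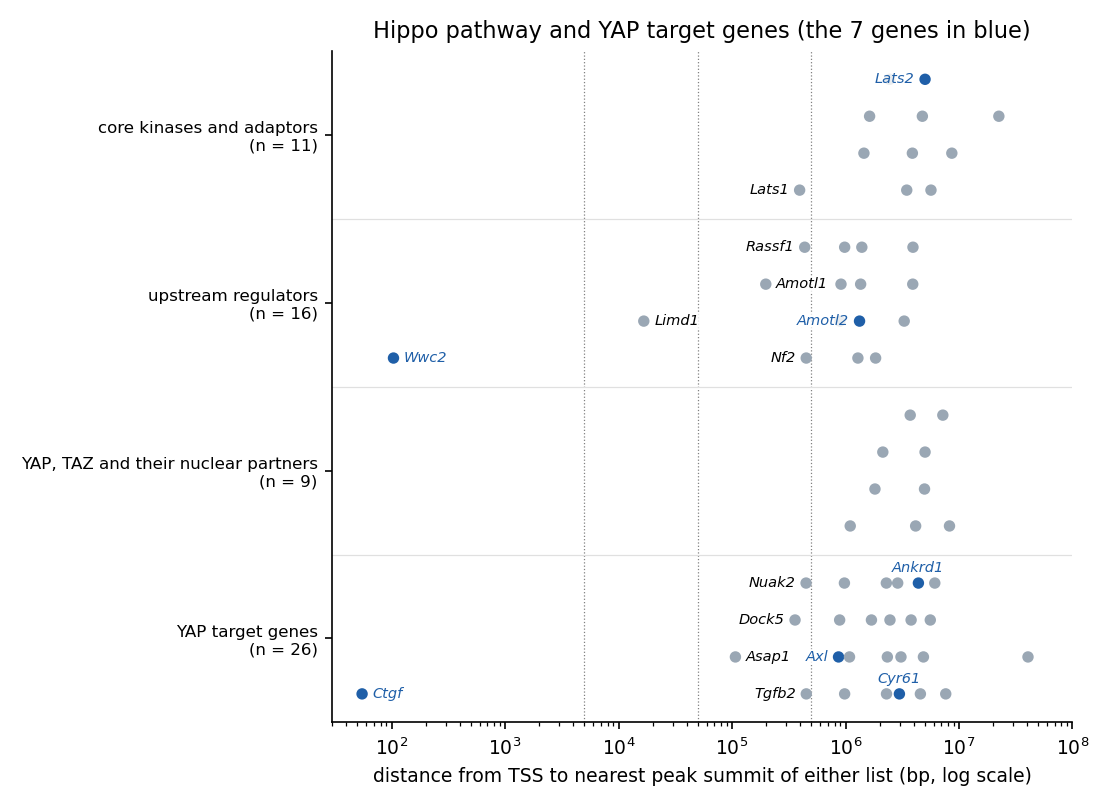
Distance from the TSS to the nearest peak summit of either list (x axis, bp, log scale) for the 62 genes of 4 lists (y axis, spread vertically within each list for legibility), 1 point per gene, with the 7 genes in blue and dotted lines at 5, 50 and 500 kb. Ctgf and Wwc2 are the only points left of 5 kb, Limd1 is the only other point left of 50 kb, and the nuclear partners all lie beyond 500 kb.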

How the data were processed

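YAP ChIP-Seq was read from the peak lists of the 2 YAP replicates. The authors aligned the sequences to mm9 by means of bowtie, kept reads with up to 100 placements weighted by the inverse of their number, and called peaks with MACS in Galaxy on each replicate. Per the file headers, the p-value cutoff was 1e-05, the tag size 25, the band width 300, the model fold 25, the effective genome size 2.70e+09 and the control file none. The deposited tags of a peak are an unscaled count. The deposited score is 10 times the negative log10 of the p-value. The deposited fold enrichment is a ratio to the local background within each library. Replicate 1 had 27762264 tags and replicate 2 had 18187551.

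Genes came from GENCODE vM1 on NCBIM37, which is mm9, with the TSS at the 5′ end of the gene. Distances ran from the TSS to the summit, taken as the peak start plus the deposited offset minus 1. Peaks of the lists were matched by an overlap of at least 1 bp. Ranks are over whole lists, ties sharing the best rank. Sequence counts used the 411 and 144 peaks on assembled chromosomes, and 25-mers were matched exactly on both strands. Proportions carry 95% Wilson intervals. No test was run: the peaks of 2 single libraries give no replicate error for a gene. The genes and lists were chosen with earlier results of these data known. The text names the 7 genes, list genes within 500 kb of a peak and genes nearest to peaks with as many motif matches as those of the 7. Gadd45b, Bahcc1, Pim1, Erc2, Tead3, Lars2, Gng7 and Plekhh3 were named after values were seen. Alternatives were minimums of 100 for the score and 5 for the fold enrichment, each list alone, peaks found in both lists, distance to the peak edge, every transcript's start, and other motif windows and forms. The functions were tested on simulated data. The scripts ran in Python 3.11.15 with matplotlib 3.10.9 for plots, numba 0.67.0 for the 25-mers, and scipy 1.17.1, pandas 2.3.3 and numpy 2.4.6.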

Additional observations from a re-analysis of the deposited data

How the results depend on the processing

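The count of the 7 genes with a peak within 5, 50 or 500 kb was 2 as reported. It was 0 at each distance with only peaks of a score of at least 100, 1 (Wwc2) with a fold enrichment of at least 5, and 0 with only peaks found in both lists. Leaving out each replicate in turn gave 0 to 2, with 0 without replicate 1. The count of pathway and target genes within 50 kb, 3 as reported, was 1 with a score of at least 100 and 2 with a fold enrichment of at least 5. It was 1 with peaks found in both lists and 1 to 3 with each replicate left out. Each lower count comes from the peaks removed. Measuring to the peak edge or from any transcript's start changed none of these counts. Of 28 alternatives for counts of genes, 13 stayed within 1.5 times the reported value, as did 27 of 43 for the distances and motif counts of single genes. CATTCC occurred 5 times in the whole Ctgf peak and 4 times in the whole Wwc2 peak, and 3 and 2 times within 50 bp of the summits. No paired analysis was possible because no result here comes from a test between groups. The lists start at 18 and 15 tags and a score of 50. They do not show whether weaker signal was present at Cyr61, Ankrd1, Axl, Amotl2 or Lats2, which was not measured here.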

Other observations

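The Wwc2 summit window also held the octamer ATGCAAAT, the sequence read by POU factors such as Oct4, which maintains ESC identity. It was searched on both strands after the sequence had been seen. The octamer occurred within 100 bp of the TSS at Wwc2 and at none of the other 6 genes, at 0.952% of all coding TSSs (213 of 22367) and at 2.68% of the summits of replicate 1 (11 of 411). In replicate 2 it occurred at 0.694% of summits (1 of 144). Besides Wwc2, the peaks of replicate 1 with both the octamer and CATTCC near the summit were those nearest to Gm9934 and Gm7697. No test was run, and a match is not a bound site.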
